A study of Mus musculus with 6 samples.

Results

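The transcription factors that carry neural crest cells through the Schwann lineage to myelination were examined in the dorsal root ganglia of mice, where sensory neurons and their glia lie next to the spinal cord. The set comprised 8 genes, chosen by name with earlier results of these data known. Egr2, Pou3f1 and Pou3f2 belong to the promyelinating and myelinating stages, Nab1 and Nab2 encode cofactors of the EGR proteins, Sox10 acts at every stage of the lineage, and Sox2 and Foxd3 mark immature and crest-derived cells. A probe was matched through its RefSeq transcript for 7 of the 8 genes, with 1 probe each, and these 7 probes stood among 41174 non-control probes on the array. No probe was matched to Sox10, which was not analysed here. On each of the 6 arrays all 7 probes were well above background, and they were among the 26248 probes tested, so none of them entered the test through the signal of 1 genotype alone.

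RNA came from ganglia of 3 wild-type (WT) and 3 dt27J mice on the C57BL/6 background at postnatal day 4, with 1 single-colour Agilent array per animal. The WT animals were littermate controls, and the design text gives 2 litters. The dt27J allele is a mutation of Dst, the gene for the cytoskeletal linker dystonin, and mice that lack it develop a sensory neuropathy; the series places this age before the phenotype. The sources used here do not give zygosity, sex or the part of Dst that the allele alters, nor whether the dates stand for litters. Of the 2 dates in the labels, the first covers replicates 1 and 2 of both genotypes and the second replicate 3 of both.

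Schwann cells arise from Sox10-expressing crest cells. Axonal neuregulin acts on ErbB receptors and, together with the receptor Adgrg6 and cyclic AMP, leads to expression of Pou3f1, which together with its relative Pou3f2 and with Sox10 activates Egr2. Egr2 then drives the genes of myelin proteins and lipids, and it needs NAB cofactors to do so, while Sox2 holds the cells in the immature state and has to decline before myelination. Foxd3 is a crest factor kept in glial precursors, and the ganglion also holds satellite glia of the same lineage.

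Because members of this set act on each other's genes, the RefSeq promoter windows (250 bases before to 50 bases after a start site, assembly GRCm38.p6) are shown for factors whose signal stood apart between the genotypes and for Nab1, the close relative of Nab2. A window was listed for 6 of the 8 genes, with 5 start sites for Egr2. No window was listed for Sox10 or for Pou3f1, so Pou3f1, whose signal also stood apart, is not shown. The third of the Egr2 starts (chr10:67537619-67537918, plus strand), Nab1 (chr1:52500399-52500698, minus strand), Nab2 (chr10:127666654-127666953, minus strand) and Foxd3 (chr4:99656049-99656348, plus strand) are printed 5′ to 3′, with matches to the searched motifs in capitals.
Egr2: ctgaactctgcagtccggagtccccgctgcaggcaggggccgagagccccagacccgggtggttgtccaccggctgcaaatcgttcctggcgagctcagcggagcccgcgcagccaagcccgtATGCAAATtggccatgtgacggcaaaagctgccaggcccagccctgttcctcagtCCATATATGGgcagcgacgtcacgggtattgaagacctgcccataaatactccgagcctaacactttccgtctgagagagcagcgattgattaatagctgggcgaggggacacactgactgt
Nab1: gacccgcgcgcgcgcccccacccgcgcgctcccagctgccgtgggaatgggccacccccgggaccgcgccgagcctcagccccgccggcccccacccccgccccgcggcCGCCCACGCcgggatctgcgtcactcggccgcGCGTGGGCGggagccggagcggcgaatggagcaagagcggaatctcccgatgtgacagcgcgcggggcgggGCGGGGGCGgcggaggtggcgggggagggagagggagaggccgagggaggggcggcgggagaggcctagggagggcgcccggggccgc
Nab2: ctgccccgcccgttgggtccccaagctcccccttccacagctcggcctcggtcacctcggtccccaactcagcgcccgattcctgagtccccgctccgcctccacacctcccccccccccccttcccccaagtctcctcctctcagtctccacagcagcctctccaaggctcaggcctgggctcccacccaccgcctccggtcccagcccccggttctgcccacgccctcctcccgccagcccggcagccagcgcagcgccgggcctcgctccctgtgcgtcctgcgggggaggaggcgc
Foxd3: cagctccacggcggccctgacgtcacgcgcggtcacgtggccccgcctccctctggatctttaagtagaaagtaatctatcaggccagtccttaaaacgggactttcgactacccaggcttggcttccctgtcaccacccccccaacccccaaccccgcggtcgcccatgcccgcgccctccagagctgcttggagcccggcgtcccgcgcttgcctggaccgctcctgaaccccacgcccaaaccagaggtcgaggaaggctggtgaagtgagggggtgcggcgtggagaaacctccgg

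The motifs searched, on both strands, were the EGR site GCGNGGGCG, the SOX cores ACAAAG and ACAAT, the POU octamer ATGCNAAT and the CArG box bound by serum response factor. No match overlapped a match of another motif. The printed Egr2 window held 1 octamer, from base -127 to base -120 relative to the start, and 1 CArG box, from -72 to -63, which reads the same on both strands. An octamer stood in 3.15% and a CArG box in 1.63% of the 32851 windows of the table. The Egr2 window of the first start (chr10:67535249-67535548) held none of the motifs. That of the second start (chr10:67537316-67537615) held 1 CArG box of other letters, from -72 to -63, and no octamer. The other 3 of the 5 Egr2 windows overlap and share the same octamer and CArG box. Nab1 held 3 EGR matches, which begin at -141, -109 and -38, whereas the Nab2 and Foxd3 windows held no match to any of these motifs. An EGR match occurred in 5.55% of all windows, and the Nab1 window was 81.7% G and C against a median of 52.7% over all windows. Sox2 held 1 ACAAAG, from -206 to -201, a core found in 18.7% of all windows, and Pou3f2 held 1 EGR match at -8. ACAAT, found in 31.0% of all windows, was in none of the 10 member windows. Such matches describe the letters of a window and are not evidence of binding.

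Some features of the 6 arrays bear on every value that follows. The share of probes well above background was 63.1% to 71.4% per array. The 3 Dst probes fell by 2.42 to 2.68 on the log2 scale in dt27J (SE 0.26 to 0.40), so the targeted gene was lower where the labels give the mutant. WT 1 and WT 2 stood apart in markers of spinal cord. The summed signal of 14 genes of oligodendrocytes and astrocytes, in multiples of an array's 75th percentile, was 39.2 and 34.5 on these arrays, 9.74 on WT 3 and 11.0 to 17.1 on the dt27J arrays. The oligodendrocyte factor Olig2 was at -0.80 and -1.12 on WT 1 and WT 2 and between -4.91 and -4.58 on the other 4 arrays, on the log2 scale relative to the 75th percentile. Skeletal muscle markers moved the other way, with a summed signal of 14.1 on both WT 1 and WT 2, 40.8 on WT 3 and 43.0 to 81.6 on the dt27J arrays. Markers of sensory neurons summed to 167 to 216 in WT and 88.5 to 155 in dt27J, and all 9 that were measured were well above background on every array. Markers of Schwann cells summed to 379 to 501 in WT and 339 to 463 in dt27J, so the summed level of these markers overlapped between the genotypes. In such whole-tissue RNA, a change in the number of cells of a type and a change of RNA per cell cannot be told apart.

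**Figure D1:**
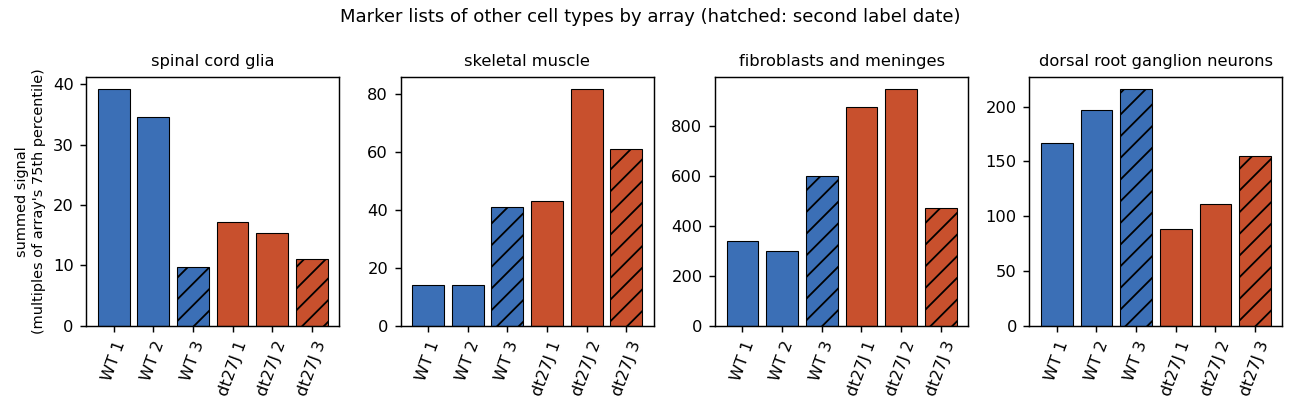
Summed signal of 4 marker lists on each of the 6 arrays, in multiples of the array's own 75th percentile (linear axis from 0, blue WT, red dt27J, hatched bars second label date). Spinal cord glia reached 39.2 on WT 1 and 34.5 on WT 2, with 9.74 to 17.1 on the other arrays, while skeletal muscle was lowest on WT 1 and WT 2, at 14.1 each.

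Egr2 was the one member that passed the test between genotypes, and it rose about 4-fold. Pou3f1, Nab2 and Foxd3 were also higher on every dt27J array than on any WT array but did not pass, whereas Pou3f2, Nab1 and Sox2 overlapped between the genotypes. By p, Pou3f1, Nab2 and Foxd3 ranked 1802, 2439 and 1151 among the 26248 tested probes, of which 838 passed. Over the 7 probes the median difference, dt27J minus WT, was 1.12 on the log2 scale, against -0.05 over all tested probes, and 6 of the 7 differences were positive against 46.4% of all tested probes. With limma and Benjamini-Hochberg adjustment over all tested probes, 1 of 7 member probes passed an adjusted p of 0.05, and it was higher in dt27J; of all tested probes 3.19% passed, 1.31% as higher and 1.88% as lower. The unadjusted p was under 0.05 for 4 of 7 members, all higher in dt27J, against 27.7% of all tested probes in either direction and 12.0% as higher. All dt27J arrays lay above all WT arrays on the same 4 members, Egr2, Pou3f1, Nab2 and Foxd3, an order found on 12.8% of all tested probes, while 28.8% did not overlap in either direction. The difference was positive within both dates for 5 of 7 members, against 24.5% of all tested probes. Because the members were chosen with earlier results of these data known, these contrasts with all probes describe the set and do not test it.

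**Figure D2:**
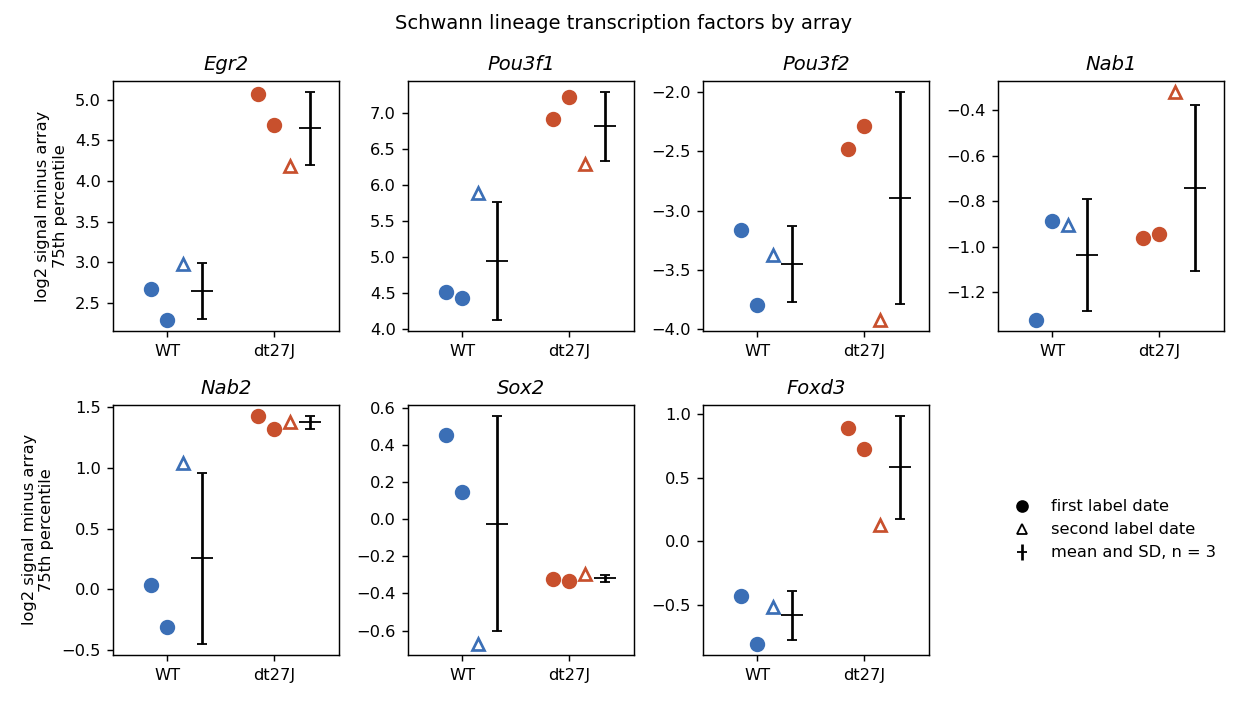
Log2 signal minus the array's 75th percentile for the 7 members (1 panel each, own vertical scale), with 1 point per array, filled circles for the first and open triangles for the second label date, and the mean and SD of 3 arrays beside each genotype. For Egr2, Pou3f1, Nab2 and Foxd3 the lowest dt27J array is above the highest WT array, and for Pou3f2, Nab1 and Sox2 the genotypes overlap.

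Egr2, also called Krox20, is the zinc finger factor on which peripheral myelination depends. Its log2 values relative to the 75th percentile were 2.67, 2.29 and 2.98 on WT 1 to WT 3 and 5.07, 4.68 and 4.18 on dt27J 1 to dt27J 3. The genotypes did not overlap, and the gap between the highest WT and the lowest dt27J array was 1.20. The difference was 2.00 (SE 0.31, n = 3 arrays per genotype, adjusted p = 0.0442, limma), a 4.00-fold rise with a 95% interval of 2.41 to 6.63. This probe is spotted 10 times on each array, and its repeated spots varied by an SD of only 0.05 to 0.07 on the log2 scale. The SD between the 3 arrays of 1 genotype, 0.35 in WT and 0.44 in dt27J, lay well above this spot noise. Those arrays differ in label date as well as in animal, and these parts of the spread were not separated. The log2 difference was 2.40 within the first date and 1.20 within the second, where 1 array stands for each genotype. A rise of Egr2 was thus present within both dates, and the test that the dates differ gave -1.19 (SE 0.41, adjusted p = 0.140). The second-date difference lies between WT 3 and dt27J 3, whose summed spinal cord glia signals were 9.74 and 11.0, with muscle sums of 40.8 and 60.8 and fibroblast sums of 602 and 473; the part of other cells in the Egr2 values was not tested. The call was lost in the fits without WT 1 (adjusted p = 0.248), without WT 2 (0.157), without dt27J 1 (0.177) or without dt27J 2 (0.0828), with log2 differences of 1.78 to 1.99 in these 4 fits.

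Pou3f1, also called Oct6 or SCIP, marks the promyelinating Schwann cell and declines as myelin forms. Its log2 values were 4.52, 4.44 and 5.90 in WT and 6.92, 7.22 and 6.29 in dt27J. WT 3 stood 1.42 above the mean of the other WT arrays, and dt27J 3 stood 0.78 below the mean of the other dt27J arrays, so the second-date arrays were the closest pair across genotypes, although no arrays overlapped. The difference was 1.86 (SE 0.44, 95% interval 0.81 to 2.91, adjusted p = 0.0634). It was 2.59 within the first date and 0.40 within the second, and the difference between the dates, -2.19 (SE 0.34), had an adjusted p of 0.0542. Among the 7 members this was the smallest p for a difference between dates, and 0 of 7 passed, against 0.831% of all tested probes (218 probes); 5 of 7 had an unadjusted p under 0.05, against 27.5%. Pou3f1 passed the genotype test in some processing settings, with adjusted p of 0.0465 (quantile normalization) and 0.0415 (the series table of the authors), and it did not in the setting used throughout. It did not pass after median centring (0.0568) or normexp background correction (0.0552), nor without WT 1, WT 2, dt27J 1 or dt27J 2 (0.147 to 0.257).

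Pou3f2, or Brn2, is the relative of Pou3f1 that partly overlaps with it in Schwann cells and is also a factor of neural progenitors. Its probe was dim, with signals of 35.1 to 54.0 in WT and 38.3 to 95.1 in dt27J on the scanner's linear scale. The log2 values were -3.17, -3.80 and -3.38 in WT and -2.48, -2.28 and -3.92 in dt27J, so dt27J 3 was the lowest of all 6 arrays and dt27J 2 the highest. The difference was 0.55 with a 95% interval of -0.35 to 1.45 (adjusted p = 0.377), and it changed sign between the dates, at 1.098 and -0.54. Pou3f1 was thus separated between the genotypes and Pou3f2 was not; the difference between these probes was not tested.

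Nab1 and Nab2 encode proteins that bind the EGR factors and can repress or assist them, and Nab2 is itself an EGR-induced gene in several cell types. Nab2 had log2 values of 0.04, -0.31 and 1.04 in WT and 1.43, 1.32 and 1.38 in dt27J. The dt27J arrays lay within an SD of 0.05 of each other, whereas the WT arrays spread with an SD of 0.70, since WT 3 stood 1.18 above the mean of WT 1 and WT 2. The difference of 1.12 (SE 0.29, 95% interval 0.43 to 1.81) had an adjusted p of 0.0724, and it was 1.51 within the first date and 0.34 within the second. Nab1 had log2 values of -1.32, -0.89 and -0.90 in WT and -0.96, -0.94 and -0.32 in dt27J. Only dt27J 3 lay above the WT range, and the difference was 0.29 with a 95% interval of -0.23 to 0.82 (adjusted p = 0.413). The second date gave 0.58 and the first 0.15, so Nab1 was the one positive member whose difference was larger on the second date. The Nab1 window shown above held 3 EGR matches and the Nab2 window none, while Nab2 had the larger difference. Neither the difference between these probes nor a link between the matches and the signals was tested.

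Sox2, a SOX factor of immature Schwann cells, satellite glia and neural progenitors, was the only member with a negative difference. Its log2 values were 0.45, 0.14 and -0.67 in WT and -0.32, -0.33 and -0.30 in dt27J. WT 1 and WT 2 were the highest arrays and WT 3 the lowest, while the dt27J arrays agreed to an SD of 0.02. The difference was -0.29 with a 95% interval of -0.92 to 0.34 (adjusted p = 0.501), and it turned from -0.62 within the first date to 0.37 within the second. WT 1 and WT 2, the arrays high in Sox2, were also those with a summed spinal cord glia signal of 39.2 and 34.5, against 9.74 on WT 3, and the part of this signal in the Sox2 values was not tested. No fall of Sox2 was detectable with this number of arrays.

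Foxd3, the forkhead factor of the neural crest and its glial precursors, had log2 values of -0.43, -0.80 and -0.51 in WT and 0.89, 0.72 and 0.13 in dt27J. The WT arrays lay close together with an SD of 0.20, and every dt27J array was above them. The difference was 1.16 (SE 0.25, 95% interval 0.57 to 1.75, a 2.24-fold higher signal), and the adjusted p of 0.0553 did not pass the threshold. It was 1.42 within the first date and 0.64 within the second. The adjusted p was 0.0462 with the authors' values and 0.0485 when arrays were centred on their median. Foxd3 did not pass after quantile normalization (0.0522) or normexp background correction (0.0610). Nor did it pass without WT 1, WT 2, dt27J 1 or dt27J 2, where the adjusted p was 0.130 to 0.248.

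**Figure D3:**
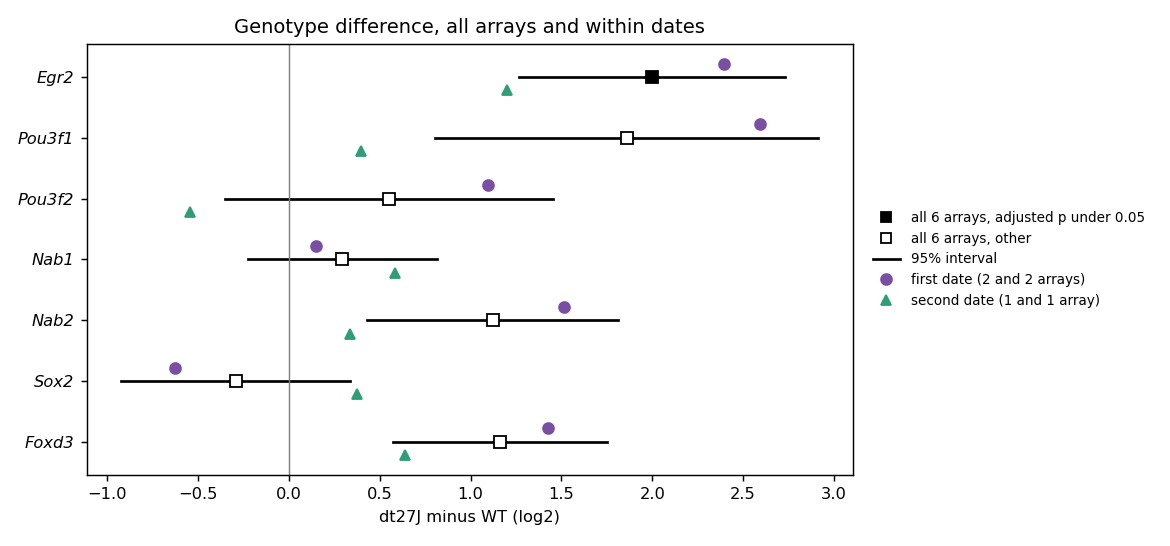
Difference dt27J minus WT on the log2 scale (horizontal axis) for the 7 members, with squares and 95% intervals from the fit to all 6 arrays, filled where the adjusted p was under 0.05, circles for the first date (2 arrays per genotype) and triangles for the second (1 per genotype). Egr2 alone is filled, at 2.00; the second-date value is below the first-date value for Egr2, Pou3f1, Pou3f2, Nab2 and Foxd3 and above it for Nab1 and Sox2.

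Egr2, Pou3f1, Nab2 and Foxd3 thus shared an ordering, with WT below dt27J on every array, and differed in the position of the second-date arrays. WT 3 stood above WT 1 and WT 2 by 1.42 for Pou3f1 and 1.18 for Nab2, by 0.50 for Egr2 and by 0.10 for Foxd3. The dt27J 3 array stood below dt27J 1 and dt27J 2 by similar amounts for Egr2 (-0.69), Foxd3 (-0.68) and Pou3f1 (-0.78), and at 0.01 for Nab2. The named genes whose profile over the 6 arrays was most like that of a member were found by Pearson correlation among 18251 named probes well above background throughout, as a description of arrays that share the genotype split. They were Vrk2, Npr3 and Sat1 for Egr2 (r of 0.998 to 0.997), Crot, 4930503L19Rik and Ptprc for Foxd3 (0.998 to 0.996), Myh14, Tbx6 and Hnrnpm for Pou3f1 (0.997 to 0.994), Zbtb44, Csrp1 and Mtbp for Nab2 (0.995 to 0.988). For the members that overlapped between genotypes they were Pkig, Lypla1 and Slc35g1 for Pou3f2 (0.998 to 0.996), Stx17, Sart1 and Cyth3 for Nab1 (0.988 to 0.984) and Grb14, Lrig1 and Mterf4 for Sox2 (0.986 to 0.985). No member appeared among the 3 nearest genes of another.

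Paralogues of the members were measured in part. Egr1, the immediate early relative of Egr2, rose as well, by 1.21 (SE 0.19, adjusted p = 0.0446), from 0.77, 0.63 and 0.29 in WT to 2.07, 1.83 and 1.42 in dt27J, and its difference was 1.25 within the first and 1.13 within the second date. Egr1 therefore kept nearly the same difference on both dates, while that of Egr2 was 2.40 and 1.20. Egr4 stood at -0.78 (adjusted p = 0.0887), and Egr3 did not rise above background on any array. Among the relatives of Pou3f1, Pou3f3 stood at 1.29 (adjusted p = 0.116; 1.98 and -0.09 within the dates), and Pou3f4 did not rise above background on any array. Sox8 and Sox9, which share the SOXE group with Sox10, stood at 0.02 and -0.03 with adjusted p of 0.987 and 0.957. The Sox8 value joins first- and second-date differences of -1.24 and 2.56, and both of these near-zero values changed sign under alternative settings; their second probes stood at 0.29 and 0.16. Sox1, of the same group as Sox2, stood at -0.44 (adjusted p = 0.212). Foxd1 and Foxd2, relatives of Foxd3, stood at 1.02 and 0.83 (adjusted p = 0.0712 and 0.0965), and Foxd4 did not rise above background on any array. Of the 8 paralogues tested, 1 passed as higher and 0 as lower, with a median of 0.42.

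Genes reported as targets of Egr2 and Sox10 in myelin were divided in direction. Of 22 myelin genes, all tested, 1 rose and 0 fell at the threshold, 12 differences were positive and 10 negative, and the median was 0.13, against -0.05 over all tested probes. Gldn, which encodes gliomedin, the Schwann cell ligand that gathers sodium channels at nodes, was the gene that rose, by 1.69 (SE 0.24, adjusted p = 0.0413), from -3.64, -3.51 and -3.41 in WT to -1.47, -1.79 and -2.25 in dt27J. Mal, a lipid raft protein of myelin, stood at 1.25 (adjusted p = 0.0526), and Sh3tc2, an endosomal adaptor of Schwann cells, at 1.22 (0.0582). Some structural myelin transcripts, chosen after their values were seen, stood at -0.52 (Mbp), -0.49 (Mag) and -0.08 (Pmp22). The adjusted p of these brightest probes lay between 0.194 and 0.802. A second Mag probe stood at -1.004 (adjusted p = 0.0574), and other Mbp probes stood at -0.64 (0.0900) and -0.42 (0.591). The summed signal of the list was 370 to 497 in WT and 396 to 489 in dt27J, so the genotypes overlapped, and WT 3 was the lowest array.

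**Figure D4:**
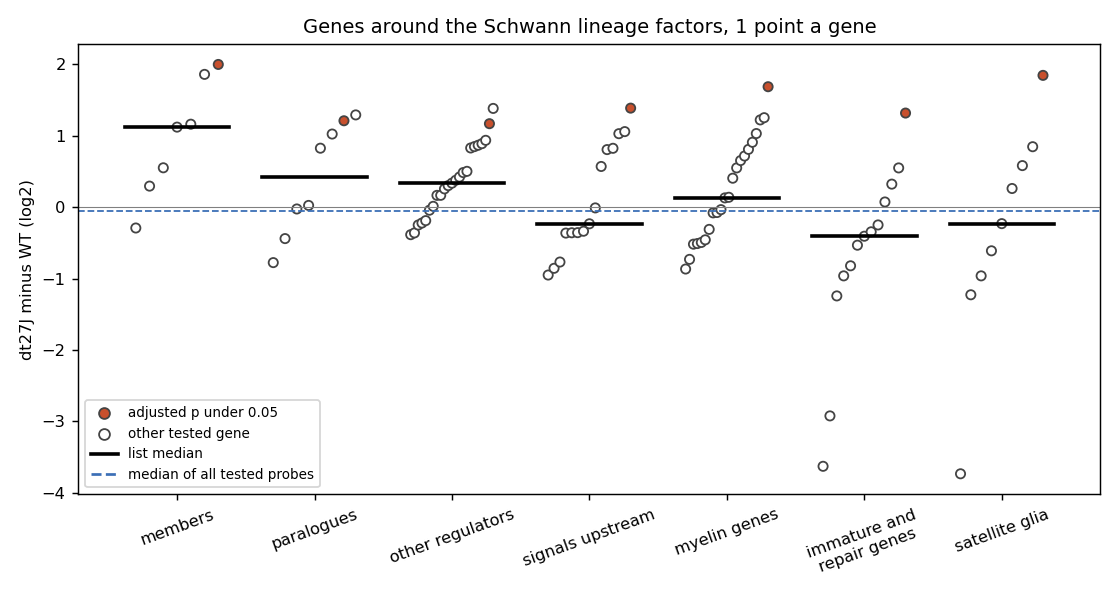
Difference dt27J minus WT on the log2 scale for each tested gene of 7 lists (1 point a gene by its brightest probe, filled where the adjusted p was under 0.05, thick line the list median, dashed line the median of all tested probes at -0.05). The medians are 1.12 for the 7 members, 0.42 for the paralogues, 0.34 for other regulators, 0.13 for myelin genes, -0.23 for upstream signals and satellite glia and -0.41 for immature and repair genes.

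Genes of immature and repair Schwann cells had a median of -0.41, with 4 positive and 9 negative differences over 13 tested genes, 1 higher and 0 lower at the threshold. Ednrb, an endothelin receptor of immature glia, rose by 1.32 (SE 0.21, adjusted p = 0.0442), although its second probe stood at 0.32. The adhesion molecule L1cam stood at -1.24 (adjusted p = 0.0662) and Fabp7, a fatty acid binding protein of immature and satellite glia, at -0.96 (0.0720). Gfap and Olig1, which spinal cord glia also express and which were chosen after their values were seen, differed by -4.40 and -6.46 within the first date and by 0.02 and 2.03 within the second. Both were well above background on only 2 of 3 dt27J arrays and so were tested through WT alone, which limits the size of these differences. Artn, above background on 0 arrays, and Btc, with 1 probe above it on 0 and the other on 4 arrays, did not enter the test. The first-date median of the list was -0.42 and that of the second date -0.19. 

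Other regulators of the lineage had a median of 0.34, with 17 of 23 tested genes positive, 1 higher and 0 lower at the threshold. Yap1, a coactivator of the Hippo pathway that supports Schwann cell growth and Egr2 expression, rose by 1.17 (SE 0.20, adjusted p = 0.0472; 1.07 and 1.37 within the dates). Ets1 stood at 0.87 and Hes1, a Notch target, at 0.94, both with an adjusted p of 0.062, and other Ets1 probes stood at -0.41 and 0.11. Of 3 probes of Zeb2, a factor that represses inhibitors of Schwann cell differentiation, the brightest stood at 0.83 (adjusted p = 0.0723), and the other two rose by 1.27 and 1.22 (0.0454 and 0.0495). The second probe of Id2, an inhibitor of differentiation factors, rose by 0.92 (adjusted p = 0.0495), and its brightest stood at 0.89 (0.0621). These genes were named after their values were seen. The median was 0.41 within the first date and -0.07 within the second. Sox5, Pax3 and Tead1 were not tested, since they were not well above background on all arrays of either genotype.

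Upstream signals were mixed. Of 15 genes, all tested, 1 rose and 0 fell, with 6 positive and 9 negative differences and a median of -0.23. Erbb2, the neuregulin coreceptor of Schwann cells, rose by 1.39 (SE 0.19, adjusted p = 0.0413), from 0.24, 0.26 and 0.02 in WT to 1.81, 1.64 and 1.23 in dt27J, while a second and much dimmer Erbb2 probe stood at 0.12. The MAP kinase gene Mapk3 stood at -0.95 (adjusted p = 0.0519) and Itga6, a laminin receptor subunit, at 1.03 (0.0582). Erbb3, the partner of Erbb2 that binds neuregulin, was at -0.01 on a dim probe, with a second dim probe at 0.73 (adjusted p = 0.314).

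Markers of the other cells that the ganglion or its dissection could hold moved as well. Of 9 satellite glia genes, 1 rose, the cadherin Cdh19 at 1.85 (SE 0.36, adjusted p = 0.0497), which the Schwann lineage shares and which was well above background on only 1 of 3 WT arrays, so that it was tested through dt27J alone; after normexp background correction it stood at 0.38 (0.0858). None of the 9 fell at the threshold, with Fabp7 at -0.96. The water channel Aqp4 stood at -3.74, which joins -5.56 within the first date and -0.09 within the second; its log2 values were 1.02 and 1.15 on WT 1 and WT 2, the arrays high in spinal cord glia, and -2.54 on WT 3. Of 11 tested genes of spinal cord glia, 0 rose and 1 fell. This gene, Gpr17, a receptor of oligodendrocyte precursors, fell by 3.70 (SE 0.61, adjusted p = 0.0454). The list was divided, with 3 positive and 8 negative differences. Cspg4, a proteoglycan of oligodendrocyte precursors and pericytes, stood at 1.099 (adjusted p = 0.0530; second probe 0.57), Aspa, an enzyme of oligodendrocytes, at 0.93 (0.0572), and Pdgfra at 0.67 (0.115). The list median was -2.34, made up of -3.30 within the first date and 0.08 within the second. Spinal cord neurons and progenitors had a median of -1.19 over 7 tested genes with 0 past the threshold by limma and 6 at an unadjusted p under 0.05. The smallest p belonged to Pax2 (-1.08) and Pax6 (-1.19), which were well above background on 2 and 1 of 3 dt27J arrays and so were tested through WT alone, and which stood at -0.12 and -0.09 after normexp. Of 4 tested melanocyte genes, which share Sox10 and Foxd3-expressing precursors with Schwann cells, 1 rose and 0 fell. Pmel rose by 1.96 (SE 0.26, adjusted p = 0.0413), Dct stood at 0.98 (0.122) and Tyrp1 at -0.51 (0.175). The list held 3 positive differences and 1 negative, and its median was 0.92, made up of 1.61 within the first date and -0.06 within the second. The summed signal was 1.92 to 2.16 in WT and 2.12 to 2.47 in dt27J, while Tyr did not rise above background on any array.

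Muscle, vessel, connective tissue and cell cycle lists had positive medians over all 6 arrays. Of 9 skeletal muscle genes 3 rose, the contractile genes Tnnt3 (1.84) and Myh1 (2.40, with a dim second probe at -0.17) and the myoglobin gene Mb (3.26), with a median of 1.84 that was 2.35 within the first and 0.23 within the second date. Of 7 endothelial genes 1 rose, Tek (list median 0.78), of 5 macrophage genes Aif1 (0.27) and of 8 cell cycle genes Top2a (0.80). The Top2a probe that rose stood at 1.17, and a second, dimmer probe at 0.08 (adjusted p = 0.910). Of 7 fibroblast genes 0 passed by limma and 4 had an unadjusted p under 0.05, with a median of 0.87 that was 1.66 within the first and -0.14 within the second date. Of 9 sensory neuron genes 2 fell, with a list median of -1.04. One of them, Tlx3, a factor of sensory neuron identity, fell by 2.40 (SE 0.46, adjusted p = 0.0491). Of the 9 tested Schwann cell markers, 1 passed, Cdh19, with the limit given above, and the median was -0.08. The summed signal of fibroblast genes was highest on dt27J 1 and dt27J 2, at 876 and 949, against 473 on dt27J 3 and 299 to 602 in WT. These were also the arrays highest in Egr2, Pou3f1 and Foxd3, and the part of other cells in the member values was not tested.

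The direction of each member was the same in all 17 alternative settings, while the call depended on the setting. Settings that changed only the filter or the block left each difference unchanged by construction, so their shared direction was fixed in advance. No setting fitted the second date alone, where Pou3f2 stood at -0.54 and Sox2 at 0.37. Egr2 passed in 10 of them, Pou3f1 in 7, Foxd3 in 6, Nab2 and Pou3f2 in 4, Sox2 in 1 and Nab1 in 0. The counts of Egr2, Pou3f1, Foxd3, Nab2 and Pou3f2 include the first-date fit repeatedly, because leaving out either second-date array gives the same fit. All passes of Nab2 and Pou3f2 came from this fit or from array weights, and the Sox2 pass came from array weights. The fit with array weights, whose estimate stopped before full convergence, passed 12199 of 26248 tested probes. Over the 17 settings the Egr2 difference lay between 1.78 and 2.40 and that of Sox2 between -0.72 and -0.11. With only the first date, 5 of 7 members passed, all higher in dt27J, but so did 6805 of 26248 tested probes.

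**Figure D5:**
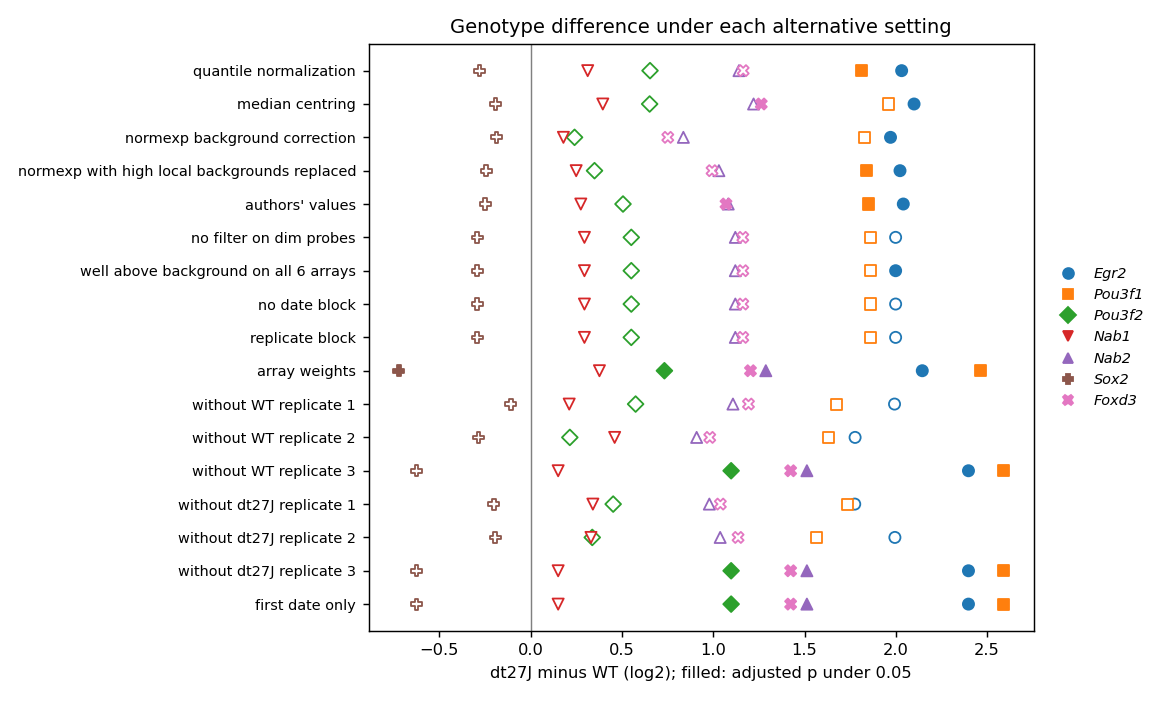
Difference dt27J minus WT on the log2 scale (horizontal axis) for the 7 members under each of 17 alternative settings (rows), with a symbol per gene, filled where the adjusted p was under 0.05. Egr2 lies between 1.78 and 2.40 in every row, and Sox2 alone lies below 0 in every row.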

How the data were processed

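Total RNA (300 ng) of 6 ganglion samples was labelled with Cy3, 1 array each, per the labels. The deposited scanner files were written by Agilent Feature Extraction 10.5.1.1, per the submitters' processing notes. Per the file headers, their processed signal is a linear intensity after background subtraction within the array, with no normalization between arrays. The raw median spot and local background signals are deposited intensities too. A series table deposited by the authors gives log2 values centred on each probe's median, with column medians of -0.0042 to 0.0053; the sources used here do not give its background correction or normalization. The flags for outlier spots and signal above background, of no unit, are the scanner software's, per the file headers.

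Values are the log2 processed signal less its 75th percentile on that array (a signal of 369.5 to 580.0). Control and outlier spots were left out and repeated spots averaged. A probe was tested if well above background on all 3 arrays of a genotype; none was saturated. Probes were named by RefSeq accession (GRCm38.p6 tables, 24844 of 41174 probes), and the array's annotation is of build mm9, so only promoter windows carry coordinates. The test was limma 3.58.1 in R 4.3.3, on all 6 arrays with genotype and label date, checked on simulated data, with Benjamini-Hochberg adjustment over 26248 probes and a threshold of 0.05 (3 residual and 3.74 prior degrees of freedom); differences between dates came from an interaction term. The simulated data held less noise than these arrays and only large differences, so the check does not show how often smaller ones are found. The number of arrays limits the precision. A gene with several probes is represented by its brightest tested one, and a second probe is given where it disagrees. Genes named were all member probes and paralogues and the 3 with the smallest p of each list; other genes were named afterwards, and the text says where. Members and lists were chosen with earlier results of these data known. Alternatives covered normalization, background correction, the authors' values, the filter, the blocks, array weights and left-out arrays. Same-numbered samples did not deviate together (correlations of 0.219, -0.152 and 0.0625), so the replicate numbers were not taken as pairs. Some genes of the lists are counted but not reported here by name.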

Additional observations from a re-analysis of the deposited data

Results flagged for a closer look

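The genotype difference of Pou3f2 took opposite signs on the 2 dates: both dt27J arrays lay above both WT arrays on the first date, while on the second date, with 1 array per genotype, it was -0.54. Sox2 lay lower on both first-date dt27J arrays than on either WT array and stood at 0.37 on the second date. The test of the difference between dates gave adjusted p values of 0.0998 for Pou3f2 and 0.139 for Sox2 (limma interaction term over 26248 probes), so neither passed.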

How the results depend on the processing

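All 7 member differences kept their sign in 17 alternative settings, which for a change of filter or block was fixed in advance. With the main setting 1 of 7 member probes passed, as with normexp background correction or only probes well above background on all 6 arrays. The count was 2 after quantile normalization, 2 after median centring, 2 with normexp and high local backgrounds replaced (chosen after seeing the data), 3 with the authors' values, 6 with array weights (whose estimate stopped before full convergence), 5 with the first date alone and 0 without the date block or without a filter on dim probes. Leaving out 1 array gave 0 to 5. At an unadjusted p under 0.05, 4 of 7 passed in each setting that called 0. Removing WT 3 or dt27J 3 equals the first date alone, because the block then absorbs the remaining array. Over all probes, 838 passed in the main setting. The count over all probes was also larger, at 977 after quantile normalization, 1014 after median centring, 940 with high local backgrounds replaced and 1175 with the authors' values. It was 718 after normexp and 806 of 24240 with only probes well above background on all 6 arrays. Without the filter 0 passed (8485 at an unadjusted p under 0.05), and 14 passed without the block, 12199 with array weights and 6805 on the first date. With 1 array left out the count was 0 to 6805 (0 without WT 2 or dt27J 1, with 4990 and 4475 at an unadjusted p under 0.05). Higher probes made up 41.1% of calls, 55.0% after quantile normalization, 59.8% after median centring, 56.3% after normexp, 53.3% with high local backgrounds replaced and 52.3% with the authors' values.

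With the replicate number as a block in place of the date, 0 of 7 members and 2 of 26248 probes passed, and Egr2 had an adjusted p of 0.108. WT 1 correlated best with dt27J 2 in its deviations, so not every sample matched its own number. The interaction of genotype and date passed for 218 probes, for 1086 after normexp, 1417 with high local backgrounds replaced, 1623 with the authors' values, 405 without the filter and 994 with probes well above background throughout. The near-zero Sox8 difference turned to -0.98 with array weights and -1.24 on the first date or without either second-date array, and that of Sox9 to 0.075 after median centring; with 1 array left out Sox8 ranged from -1.24 to 0.61 and Sox9 from -0.33 to 0.10. The cause of these changes was not tested. In dim probes such as Pou3f2, the signal over background limits the log2 difference, which was 0.24 after normexp against 0.55.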
